A study of Homo sapiens with 3 samples.

Results

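RAB GTPases are the largest branch of the RAS superfamily of small GTPases, and 56 of their genes were searched for Fra-1 peaks and Fra-2 peaks of the breast cancer line MDA-MB-231. The members were the protein-coding autosomal genes in GENCODE on GRCh37 whose symbol is RAB followed by digits and an optional letter, 56 of 18893 protein-coding autosomal genes. MDA-MB-231 is a long-established human line from a triple-negative (basal b) tumour, grown here with 10% fetal calf serum. Chromatin immunoprecipitation followed by sequencing (ChIP-seq) was done with an antibody to Fra-1 and one to Fra-2, both in the same line, with no treatment named in the labels. The Fos family members Fra-1 and Fra-2 pair with Jun proteins to form the transcription factor AP-1. The labels mention 2 independent replicates of each, but 1 peak list per antibody was analysed, so no value has a spread between replicates, and the input DNA sample was not analysed here.

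A RAB protein is a switch on a membrane. Exchange factors load it with GTP, and in that state it recruits effectors such as motors and tethers that move, dock and fuse vesicles; GTPase-activating proteins then turn it off. Each RAB marks its own compartments, so the family as a whole maps the routes between the endoplasmic reticulum, the Golgi, endosomes, lysosomes and the cell surface. In invasive cells these routes carry integrins, growth factor receptors and proteases to and from the surface.

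A RAB locus was the gene body together with 100 kb to each side of every transcription start site (TSS) of its protein-coding transcripts. A peak belonged to it when it overlapped the body by at least 1 bp or had its centre within 100 kb of such a TSS. The Fra-1 list held 9679 autosomal peaks and the Fra-2 list 12695, and 51 and 91 of these belonged to RAB loci. No peak lay in 2 RAB loci. The lists give positions only, without height or score, so the read depth behind a peak is unknown. A range given after a share is its exact (Clopper-Pearson) 95% interval, which takes peaks and genes as independent and reflects nothing but counting error. No expression was analysed here.

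The following sequences are examples of sites in or beside RAB genes, and most of those shown hold the AP-1 element. All are GRCh37 reference sequence, plus strand, 5′ to 3′. Capitals mark the AP-1 element, TGACTCA or TGAGTCA, which are reverse complements of each other and so cover both strands. RAB31, a regulator of transport between the trans-Golgi network and endosomes, held more peaks in its body than any other RAB gene, and the first 3 sequences are the sites there that both lists share. Where a peak was over 250 bp wide, 100 bp to each side of its centre are shown.
RAB31 at chr18:9719651-9719851: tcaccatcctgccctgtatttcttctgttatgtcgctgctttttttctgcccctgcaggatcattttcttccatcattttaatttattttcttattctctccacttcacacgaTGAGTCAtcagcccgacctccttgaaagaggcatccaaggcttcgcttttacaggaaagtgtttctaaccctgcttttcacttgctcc
RAB31 at chr18:9741851-9742051: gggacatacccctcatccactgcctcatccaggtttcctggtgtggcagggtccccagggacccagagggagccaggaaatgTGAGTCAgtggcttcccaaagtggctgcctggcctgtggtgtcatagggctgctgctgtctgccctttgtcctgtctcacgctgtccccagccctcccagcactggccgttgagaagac
RAB31 at chr18:9743651-9743851: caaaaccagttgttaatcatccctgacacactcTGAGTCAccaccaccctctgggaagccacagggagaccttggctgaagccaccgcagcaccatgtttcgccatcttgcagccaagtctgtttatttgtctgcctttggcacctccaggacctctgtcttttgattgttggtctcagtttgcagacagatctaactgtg

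Of the other intronic sites with a pair of elements, 4 are shown. In RAB8B and RAB3C the elements were 3 and 4 bases apart. In RAB7A they were 33 bases apart and in RAB27A 40. The sites of RAB8B, RAB3C and RAB27A were in both lists, and that of RAB7A in the Fra-2 list only.
RAB8B at chr15:63528601-63528751: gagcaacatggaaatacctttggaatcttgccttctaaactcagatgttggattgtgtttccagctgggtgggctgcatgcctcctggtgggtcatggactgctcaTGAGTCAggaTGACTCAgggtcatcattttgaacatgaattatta
RAB3C at chr5:58047101-58047301: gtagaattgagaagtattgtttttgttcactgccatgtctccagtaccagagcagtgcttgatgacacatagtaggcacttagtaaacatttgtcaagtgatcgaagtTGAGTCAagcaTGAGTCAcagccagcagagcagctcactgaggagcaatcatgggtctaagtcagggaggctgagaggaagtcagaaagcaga
RAB27A at chr15:55571951-55572151: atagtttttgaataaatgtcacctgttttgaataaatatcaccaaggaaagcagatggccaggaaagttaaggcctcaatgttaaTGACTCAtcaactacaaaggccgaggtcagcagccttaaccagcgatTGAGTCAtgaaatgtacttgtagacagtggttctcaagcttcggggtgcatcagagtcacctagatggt
RAB7A at chr3:128524751-128524951: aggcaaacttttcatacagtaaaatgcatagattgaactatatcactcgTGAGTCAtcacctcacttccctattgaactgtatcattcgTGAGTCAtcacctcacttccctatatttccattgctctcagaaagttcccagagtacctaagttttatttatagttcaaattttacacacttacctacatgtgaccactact

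A single element lay in the shared intronic sites of RAB11A and RAB22A. The shared site in an intron of RAB27B held none, and is shown for contrast with that of its paralog RAB27A.
RAB11A at chr15:66125051-66125301: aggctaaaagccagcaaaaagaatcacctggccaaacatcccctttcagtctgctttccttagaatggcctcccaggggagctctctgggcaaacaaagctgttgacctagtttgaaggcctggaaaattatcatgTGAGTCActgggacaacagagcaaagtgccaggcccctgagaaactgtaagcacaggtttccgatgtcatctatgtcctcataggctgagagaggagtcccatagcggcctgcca
RAB22A at chr20:56917201-56917351: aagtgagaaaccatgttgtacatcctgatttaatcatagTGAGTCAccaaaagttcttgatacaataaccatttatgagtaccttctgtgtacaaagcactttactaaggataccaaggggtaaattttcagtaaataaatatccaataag
RAB27B at chr18:52443651-52443801: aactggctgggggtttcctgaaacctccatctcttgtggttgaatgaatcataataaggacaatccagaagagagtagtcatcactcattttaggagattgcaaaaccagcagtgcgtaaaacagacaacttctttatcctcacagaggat

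At start sites, only the element with 11 bases to each side is shown, because these peaks overlap exons. The first site was in both lists and the other 3 in the Fra-2 list only.
RAB30 at chr11:82782776-82782804: ggatgtgcgaaTGAGTCAcgcacgcaagg
RAB34 at chr17:27045267-27045295: ggcctgggaggTGACTCAtagagtctgcc
RAB5B at chr12:56367512-56367540: ttagatgtttaTGAGTCAaaaggcggggt
RAB3D at chr19:11457183-11457211: acccctctctgTGACTCAgtctctgagcg

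Across the family, Fra-2 peaks reached more RAB genes than Fra-1 peaks did. A Fra-1 peak belonged to 27 of 56 RAB genes (48.2%, 34.7 to 62.0), where 45.3% of all protein-coding autosomal genes had one. A Fra-2 peak belonged to 41 of 56 (73.2%, 59.7 to 84.2), against 59.0% of all genes. The Fra-1 share lay near that of all genes. The interval of the Fra-2 share lay just above that of all genes, and no test of the difference was run. With each peak given only to the gene of its nearest TSS, 14 RAB genes had a Fra-2 peak (14.4 to 38.4%), against 25.7% of all genes, and 8 had a Fra-1 peak (6.38 to 26.2%), against 19.2%, so that neither share stood above that of all genes. Both kinds of peak belonged to 26 RAB genes (46.4%, against 42.6% of all genes). A Fra-2 peak alone belonged to 15 (26.8%, 15.8 to 40.3, which holds the 16.3% of all genes). A Fra-1 peak alone belonged to 1 (1.79%, against 2.70%). In all, 42 had a peak of either list (75%, 61.6 to 85.6), against 61.7% of all genes, and 14 had neither.

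Most of these peaks lay outside the RAB gene and over 10 kb from its start sites. Nearer ones numbered 14 of 51 in the Fra-1 list and 26 of 91 in the Fra-2 list. A reach of 100 kb takes in distant peaks at any locus. How peaks split in this way over all genes was not counted, so nothing particular to RAB genes is shown by it. In the body or within 10 kb of a TSS, 10 RAB genes had a Fra-1 peak (17.9%, 8.91 to 30.4), against 16.5% of all genes, and 19 had a Fra-2 peak (33.9%, 21.8 to 47.8), against 23.7%. All 10 genes with such a Fra-1 peak also had such a Fra-2 peak (17.9%, against 14.9% of all genes with both). The Fra-2 peak alone was found at 9 (16.1%, 7.62 to 28.3, which holds the 8.73% of all genes). None had the Fra-1 peak alone, against 1.59% of all genes, so 19 had either (33.9%, against 25.2%). In the gene body alone the counts were 10 for Fra-1 (17.9%, against 13.2% of all genes) and 16 for Fra-2 (28.6%, against 18.4%). All 10 were again among the 16 (both kinds: 17.9%, against 11.9%; either kind: 28.6%, against 19.6%). A Fra-2 peak alone lay in 6 bodies (10.7%, 4.03 to 21.9, against 6.43%) and a Fra-1 peak alone in none (1.23% of all genes). Within 1 kb of a TSS of the RAB gene itself they were 1 (1.79%, against 1.92%) and 5 (8.93%, 2.96 to 19.6, against 3.76%). The 1 gene had both (1.79%, against 1.62%), and 4 had the Fra-2 peak alone (7.14%, 1.98 to 17.3, against 2.14%). None had the Fra-1 peak alone (0.291% of all genes), which makes 5 with either (8.93%, against 4.05%). RAB genes were somewhat longer than others, with a median of 35.1 kb against 27.4 kb, and the part of length in the counts was not tested. The median number of other protein-coding genes with a TSS in reach was 3 for RAB genes and 3 for all genes.

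**Figure D1:**
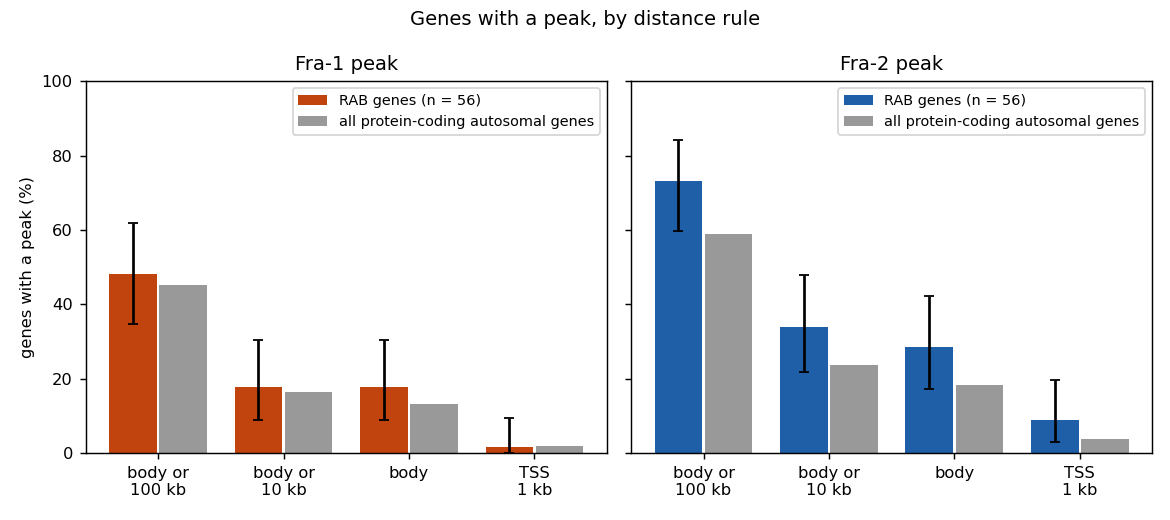
Share of genes (%) with a Fra-1 peak (left) and a Fra-2 peak (right) under each distance rule, for the 56 RAB genes with exact 95% intervals as bars and for all protein-coding autosomal genes in grey. The Fra-1 bars of RAB genes sit near the grey ones (48.2% against 45.3% at 100 kb), and the Fra-2 bars stand above them (73.2% against 59.0%).

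The number of peaks per RAB gene was low and uneven. For Fra-1, 29 RAB genes had no peak, 14 had 1, 8 had 2 and 5 had 3 or more. For Fra-2, 15 had none, 18 had 1, 11 had 2 and 12 had 3 or more. The mean was 0.911 Fra-1 and 1.62 Fra-2 peaks per RAB gene, against 0.924 and 1.43 over all genes. Per Mb of locus, overlapping loci counted once, RAB loci held 4.13 Fra-1 and 7.38 Fra-2 peaks, against 3.63 and 5.11 in the loci of all protein-coding autosomal genes.

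**Figure D2:**
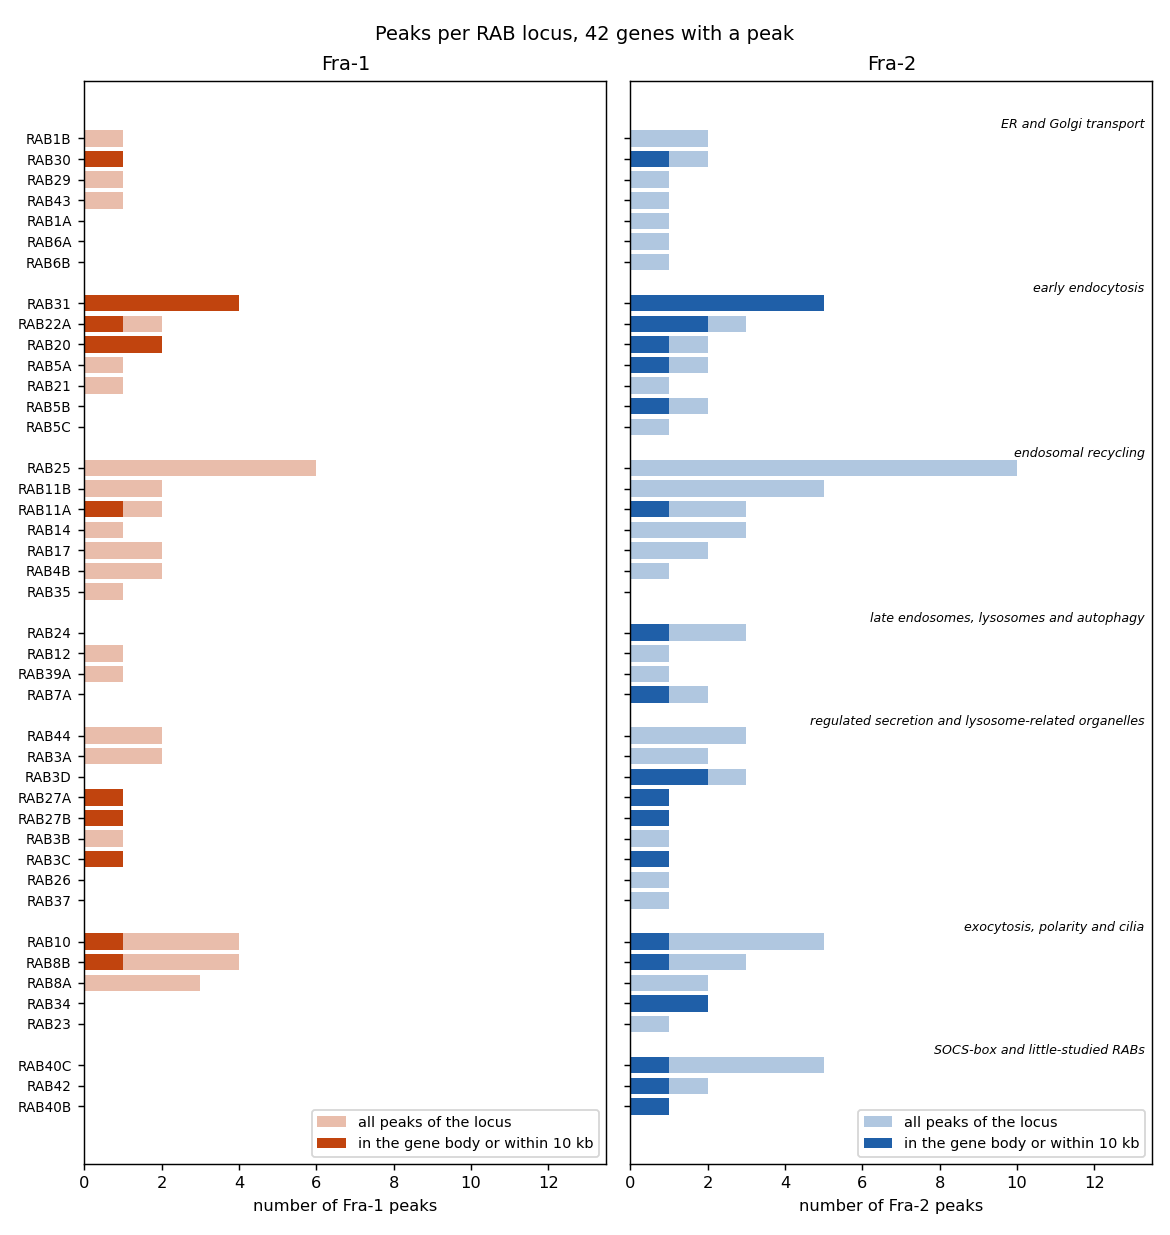
Number of Fra-1 (left) and Fra-2 (right) peaks for each of the 42 RAB genes with a peak, grouped by role; pale bars are all peaks of the locus and dark bars those in the gene body or within 10 kb of a TSS. RAB25 has the longest bars, 6 and 10, all of them pale, and RAB31 the longest dark bars, 4 and 5.

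The role groups are small, and their counts can be read beside the shares of all genes given above: 45.3% with a Fra-1 and 59.0% with a Fra-2 peak, and 16.5% and 23.7% in the body or within 10 kb. Among the RABs of early endocytosis, most peaks close by were those of RAB31. These proteins control the uptake of receptors and the fusion of early endosomes. Of 7 members, 5 had a Fra-1 peak and 7 a Fra-2 peak, and in the body or within 10 kb 3 had a Fra-1 peak and 5 a Fra-2 peak. RAB31 (chr18:9708272-9862548, plus strand, ENSG00000168461.13) held 4 Fra-1 and 5 Fra-2 peaks, all in introns. The widest spanned the same 400 bp in both lists, chr18:9743551-9743951, 35.5 kb downstream of the TSS. Nearer to the TSS lay a second pair, with the Fra-1 peak at chr18:9741851-9742001 and the Fra-2 peak at chr18:9741851-9742051.

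Another pair of RAB31 peaks, 11.4 kb from the TSS for Fra-1 and 11.5 kb for Fra-2, differed in width, at 100 bp for the Fra-1 peak (chr18:9719651-9719751) but 300 bp for the Fra-2 peak (chr18:9719601-9719901). Its element lay outside the narrower Fra-1 peak, though within 100 bp of that peak's centre. The Fra-1 list also had a peak beside it, chr18:9719451-9719601, that ended where the Fra-2 peak began, was not shared and held no element. The remaining Fra-2 peaks of the gene, chr18:9825751-9825851 and chr18:9828351-9828501, lay 118 and 120 kb from the TSS and were in the Fra-2 list only. The body of RAB31 held 27 copies of the element in all, of which 3 lay in a Fra-1 and 5 in a Fra-2 peak.

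**Figure D3:**
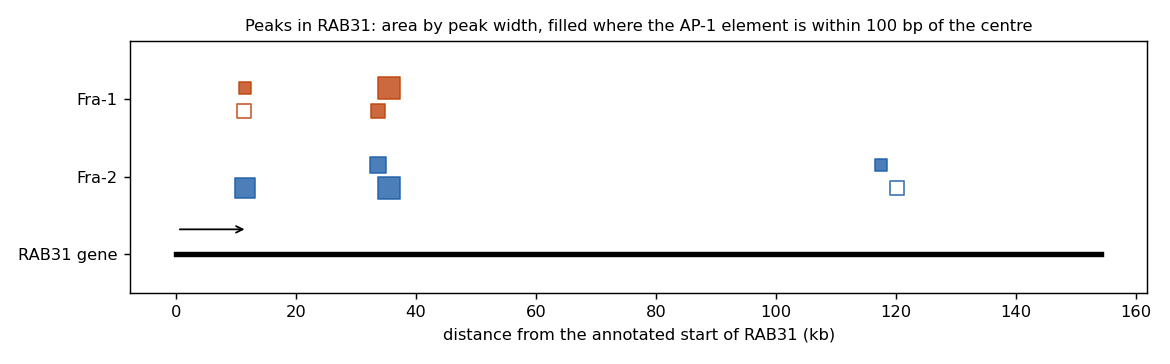
Peaks along RAB31, as distance in kb from its annotated start, with Fra-1 above Fra-2, square area by peak width (100 to 400 bp), small vertical offsets for legibility and filled squares where the AP-1 element lies within 100 bp of the centre. Both lists have peaks at 11.5, 33.7 and 35.5 kb (Fra-2 distances), and only the Fra-2 list has those at 118 and 120 kb.

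RAB22A, the paralog of RAB31 on early and recycling endosomes, had 2 peaks of Fra-1 and 3 of Fra-2. One pair lay in an intron 32.5 kb from its TSS (Fra-1 chr20:56917201-56917301, Fra-2 chr20:56917201-56917351), and another upstream, 57.5 kb away for Fra-1 and 57.4 kb for Fra-2. An intronic peak at chr20:56924701-56924851 was in the Fra-2 list only. RAB20, which acts in the maturation of endosomes and phagosomes, had intronic Fra-1 peaks at chr13:111198851-111199001 and chr13:111199351-111199451 and a Fra-2 peak at chr13:111199251-111199451 that overlapped the one nearer the TSS. RAB5A, RAB5B and RAB5C drive the fusion of early endosomes. RAB5A and RAB5B had Fra-2 peaks at the TSS that the Fra-1 list lacked. They were chr3:19989101-19989251, centred 0.279 kb downstream of the nearest TSS of RAB5A, and chr12:56367501-56367851, centred 0.021 kb upstream of RAB5B. RAB5A also had a shared pair 57.6 kb (Fra-1) and 57.7 kb (Fra-2) upstream. The RAB5B peak was 350 bp wide, and its element lay near one edge, over 100 bp from the centre. RAB5C had a single Fra-2 peak, 28.3 kb upstream, and RAB21, which carries integrins into the cell, a single shared site 44.4 kb upstream.

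RABs of endosomal recycling had many peaks and nearly all lay at neighbouring genes. Of 9 members, 7 had a Fra-1 and 6 a Fra-2 peak, yet 1 member, RAB11A, had any in the body or within 10 kb. RAB25, an epithelial relative of RAB11A, had 6 peaks of Fra-1 and 10 of Fra-2, the highest counts of the family. None had a TSS of RAB25 as the nearest. All but 1 had as nearest the TSS of LMNA, the lamin A/C gene, or ARHGEF2. The exception, also the closest to RAB25, was a Fra-2 peak 20.2 kb upstream in an intron of UBQLN4. RAB11B had 2 peaks of Fra-1 and 5 of Fra-2, the shared ones nearest to the TSS of ANGPTL4. RAB14 had 1 and 3 peaks, all in introns of GSN, the gelsolin gene.

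RAB11A (chr15:66018392-66184327, plus strand) directs vesicles from recycling endosomes to the surface. Its shared intronic site was 100 bp wide for Fra-1 (chr15:66125151-66125251) but 250 bp for Fra-2 (chr15:66125051-66125301), 36.6 kb from the nearest TSS of the gene, and its other peaks lay in introns of MEGF11. RAB17, a RAB of polarised epithelia, had 2 shared pairs 83.4 to 85.1 kb away in introns of MLPH, which itself encodes an effector of RAB27A. The Fra-2 peak of the RAB4B locus, chr19:41221601-41222301, was the widest at 700 bp; it covered 2 Fra-1 peaks and lay at a TSS of COQ8B, 62.2 kb from RAB4B. RAB35 was the 1 gene with a Fra-1 peak only, 83.3 kb away at RPLP0, and its nearest Fra-2 peak was 114 kb away, just outside the limit. RAB4A and RAB15 had none.

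Among RABs of regulated secretion and lysosome-related organelles, 6 of 11 had a Fra-1 and 9 a Fra-2 peak, and 3 and 4 had one in the body or within 10 kb. RAB27A and RAB27B dock secretory organelles, including melanosomes and the vesicle bodies that release exosomes. Each held 1 shared intronic site: RAB27A at chr15:55572001-55572151 (Fra-1) and chr15:55571951-55572151 (Fra-2), 8.97 and 8.94 kb from its nearest TSS, and RAB27B at chr18:52443651-52443801 (Fra-1) and chr18:52443651-52443751 (Fra-2), 52.0 kb away. The paralogs thus differed in sequence at their sites, with 2 elements against none. RAB3C, a RAB of synaptic vesicles, is the longest of the family at 277 kb, and its single site, identical in both lists at chr5:58047101-58047301, counted only through the gene body, 168 kb from the TSS.

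RAB3D, which acts in the secretory granules of exocrine cells, had Fra-2 peaks only. One was at chr19:11457101-11457301, 0.255 kb upstream of its TSS and 0.006 kb from one of CCDC159, which starts beside it, and another in its intron at chr19:11455201-11455401. The other members had distant peaks. RAB44 had 2 Fra-1 and 3 Fra-2 peaks, all in introns of CDKN1A, the p21 gene, and nearer to its TSS. RAB3A, the main RAB of synaptic vesicles, had 2 shared pairs 70.9 to 97.2 kb upstream, and RAB3B a shared pair 92.8 kb from its TSS for Fra-1. RAB26 and RAB37 each had a single Fra-2 peak, and RAB32 and RAB38 none.

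RABs of exocytosis, polarity and cilia had a Fra-1 peak at 3 of 7 and a Fra-2 peak at 5 of 7. RAB10, which brings glucose transporter vesicles to the surface, had 4 peaks of Fra-1 and 5 of Fra-2, most of them upstream, of which the pair 36.1 kb (Fra-1) and 36.2 kb (Fra-2) away lay in repeat-like sequence. Fra-2 peaks at chr2:26235401-26235751 (350 bp, shared) and chr2:26241101-26241251 (not shared) lay 21.4 and 15.8 kb upstream, with no other gene nearer. Its intronic site, chr2:26303301-26303551 for Fra-1 and chr2:26303401-26303501 for Fra-2, held no element. RAB8A and RAB8B act in ciliary and basolateral transport. RAB8B had 4 Fra-1 and 3 Fra-2 peaks, 1 pair of them intronic, and RAB8A 3 and 2, all at least 49.1 kb downstream. RAB34, needed for cilium formation in mouse, had Fra-2 peaks only: one at its TSS, chr17:27045251-27045401, and one 0.954 kb upstream, nearer to RPL23A. RAB23, an inhibitor of hedgehog signalling in mouse, had a Fra-2 peak 91.7 kb away, and RAB13 and RAB28 none.

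The 13 RABs of transport between the endoplasmic reticulum and the Golgi had few peaks close by. A Fra-1 peak belonged to 4 of them and a Fra-2 peak to 7, and RAB30 alone had one of either kind in the body or within 10 kb. RAB30, a Golgi RAB, was also the only RAB gene with a Fra-1 peak within 1 kb of its own TSS. That peak, chr11:82782701-82782851, was centred 0.094 kb downstream of the nearest TSS of the gene, with the Fra-2 peak at chr11:82782701-82782901. RAB1A and RAB1B, needed for export to the Golgi, had no peak nearer than 64.8 kb; the shared pair of the RAB1B locus lay at the TSS of RIN1, an exchange factor of RAB5. RAB6A and RAB6B, which return vesicles through the Golgi, had 1 Fra-2 peak each, 18.7 and 47.9 kb upstream. RAB29 and RAB43 had 1 shared pair each. RAB2A, RAB2B, RAB18, RAB19, RAB33B and RAB36 had none.

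The 4 RABs of late endosomes, lysosomes and autophagy all had a Fra-2 peak, and 2 had a Fra-1 peak. RAB7A, which drives the fusion of late endosomes with lysosomes, had 2 Fra-2 and no Fra-1 peaks. One of them lay in an intron at chr3:128524751-128524951, 10.6 kb from the nearest TSS, and the closest Fra-1 peak was 417 kb away. RAB24, a RAB of autophagy, had 3 Fra-2 peaks, the closest 9.06 kb upstream at the TSS of MXD3. RAB12 and RAB39A each had a shared pair, 56.3 and 87.5 kb away. In the last group, RAB40B and RAB40C, which carry a SOCS box and join ubiquitin ligases, and the little-studied RAB42 had 1, 5 and 2 Fra-2 peaks and no Fra-1 peak. RAB40C held its intronic Fra-2 peak at chr16:676901-677101. RAB6C and RAB6D had none.

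The limit of 100 kb was close for several genes. Just inside lay a Fra-2 peak 99.5 kb from RAB14 and a pair of peaks 99.0 kb from RAB25. Just outside, the closest Fra-1 peaks of RAB37, RAB5C and RAB26 were 101, 104 and 107 kb from a TSS, and these 3 genes are counted as having a Fra-2 peak only. Among the 14 genes without a peak, the closest of either list ranged from 120 kb (RAB18) to 376 kb (RAB13).

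Sharing between the lists was lopsided. Of 51 Fra-1 peaks, 45 overlapped a Fra-2 peak by at least 1 bp (88.2%, 76.1 to 95.6); of 91 Fra-2 peaks, 44 overlapped a Fra-1 peak (48.4%, 37.7 to 59.1). Over the loci of all genes, each peak counted once for every gene it belongs to, the shares were 82.8% and 53.6%, inside these intervals. Width went with sharing. All 23 Fra-1 peaks at least 200 bp wide were shared, and of the 48 such Fra-2 peaks 70.8% (55.9 to 83.0). The median width was 200 bp for shared and 150 bp for unshared Fra-1 peaks, and 250 and 150 bp for Fra-2. At other gene loci the medians were 200 bp for shared and 150 bp for unshared peaks in both lists. A wider peak has more bases in which to overlap by 1 bp, and the part of this was not tested.

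Of the Fra-1 peaks, 40 of 51 had the AP-1 element no more than 100 bp from the centre (78.4%, 64.7 to 88.7), and of the Fra-2 peaks 78 of 91 (85.7%, 76.8 to 92.2). Windows of the same length 5000 bp to the lower-coordinate side held it at 2 of 51 (3.92%) and 3 of 91 (3.30%). Over the loci of all genes the element was in 67.5% of Fra-1 peaks and in 77.2% of those of Fra-2, which for Fra-1 lay inside the interval of RAB loci. For Fra-2 it lay inside too, near the lower bound. Counted once per peak, the shares at other gene loci were 64.9% and 75.1%, of which the Fra-2 value lay below the interval of RAB loci. Among peaks found in 1 list only, 1 of 6 Fra-1 peaks (16.7%, 0.421 to 64.1) and 41 of 47 Fra-2 peaks (87.2%, 74.3 to 95.2) held it. The shares of such peaks at other gene loci, 41.3% and 80.7%, lay inside these intervals and were likewise lower for Fra-1. Of shared peaks, 39 of 45 Fra-1 peaks (86.7%) did, as did 37 of 44 Fra-2 peaks (84.1%), against 70.6% and 70.9% of shared peaks at other gene loci. At least 2 elements lay in 12 Fra-1 and 17 Fra-2 windows.

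Only elements within 100 bp of a peak centre were counted, which by itself keeps their distances from the centre short. The median distance was 35.5 bp in Fra-1 and 22.0 bp in Fra-2 peaks, against 25 and 24 bp at other gene loci. Within 25 bp of the centre lay 34.6% of the elements for Fra-1 and 56.8% for Fra-2. At other gene loci these shares were 50.9% and 53.5%. Most copies of the element in RAB genes were outside any peak: of 477 copies in the 56 gene bodies, 13 lay in a Fra-1 peak (2.73%, 1.46 to 4.62) and 23 in a Fra-2 peak (4.82%, 3.08 to 7.15). In the bodies of all protein-coding autosomal genes the shares were 1.72% and 2.69%. The TEAD element, GGAATGC or GGAATGT on either strand, lay in 9 Fra-1 (17.6%) and 7 Fra-2 (7.69%) windows, against 13.6% and 10.9% over the loci of all genes. TEAD factors are the DNA-binding partners of YAP and TAZ. The cyclic AMP response element TGACGTCA lay in none of the windows, which at these counts allows shares of up to 6.98% for Fra-1 and 3.97% for Fra-2 (exact binomial upper bounds), and in 0.249% of Fra-1 and 0.460% of Fra-2 windows at other gene loci.

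**Figure D4:**
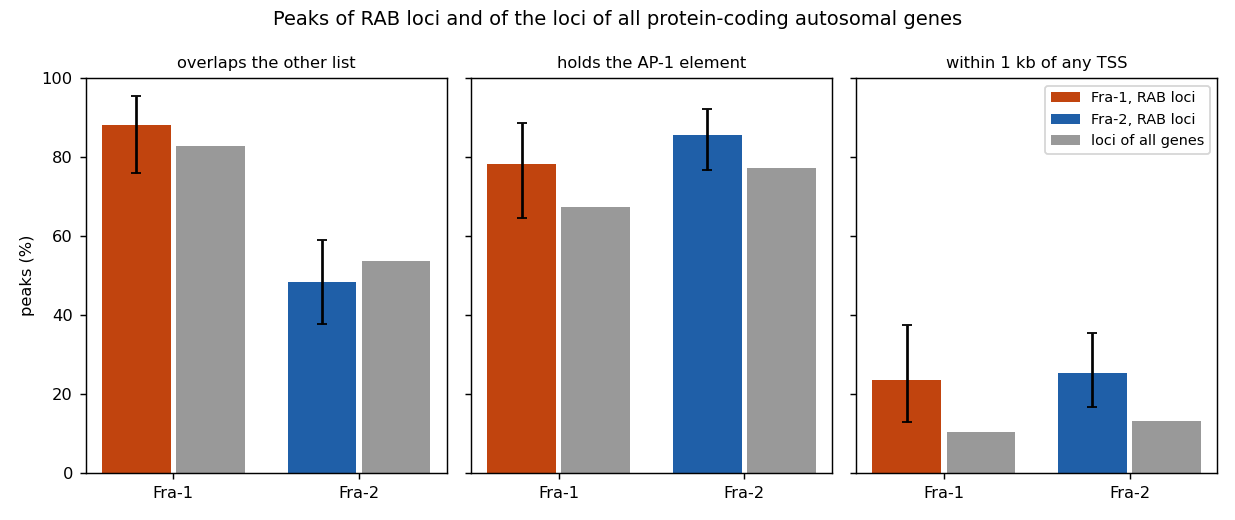
Share of peaks (%) that overlap the other list, hold the AP-1 element within 100 bp of the centre, or lie within 1 kb of any protein-coding TSS, for RAB loci (coloured, exact 95% intervals) and for the loci of all genes (grey). In the first panel the grey bars lie within the intervals of RAB loci. In the second the RAB bars, 78.4% and 85.7%, stand above the grey ones, 67.5% and 77.2%, which are still within the intervals. In the third the RAB bars, 23.5% and 25.3%, stand above the grey ones, 10.3% and 13.2%. Without the RAB25 locus, not drawn, the third shares were 17.8% (8.0 to 32.1) and 22.2% (13.7 to 32.8), and the Fra-1 interval holds 10.3%.

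Peaks of RAB loci lay at start sites of neighbouring genes more than at those of the RABs. Within 1 kb of any protein-coding TSS lay 12 of 51 Fra-1 peaks (23.5%, 12.8 to 37.5) and 23 of 91 Fra-2 peaks (25.3%, 16.7 to 35.5), against 10.3% and 13.2% over the loci of all genes. Counted once per peak, the shares at other gene loci were 5.41% and 7.42%. For 1 of the 12 and 4 of the 23 that nearest TSS was of a RAB gene. This split was not counted for all genes. A reach of 100 kb takes in start sites of other genes at any locus, with a median of 3 other genes for RAB genes and for all genes. LMNA accounted for 3 and 4 of the peaks within 1 kb of a TSS, all in the RAB25 locus. Without that locus, left out after its count was seen, the shares were 17.8% (8.0 to 32.1) and 22.2% (13.7 to 32.8). The Fra-1 interval then holds the 10.3% of all loci but not the 5.41% counted once per peak. The Fra-2 interval lies just above 13.2%. The RAB gene had the nearest TSS for 15 of 51 Fra-1 peaks (29.4%) and for 20 of 91 Fra-2 peaks (22.0%), where over all genes 38.5% and 35.0% of peaks of a locus had that gene's TSS as the nearest.

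**Figure D5:**
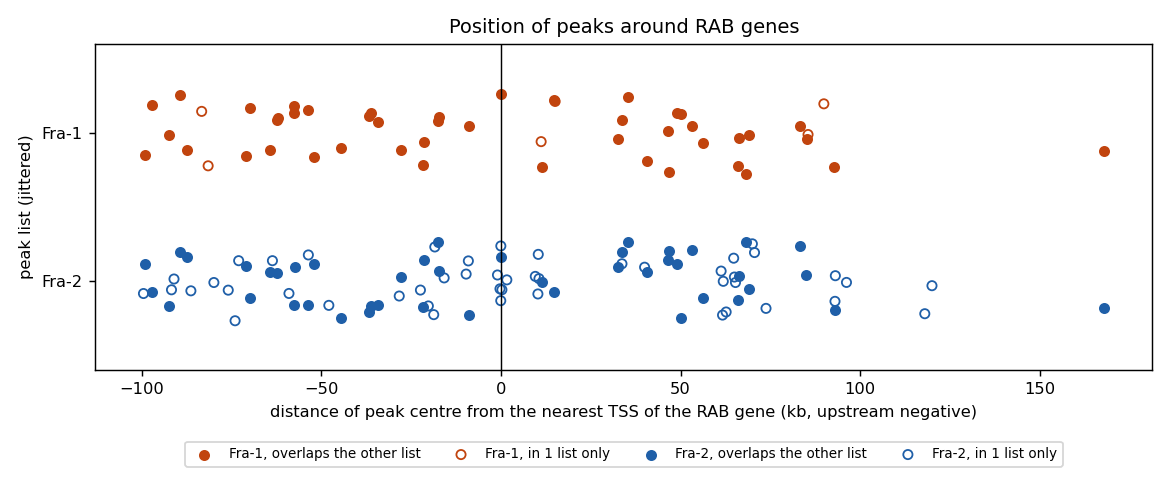
Distance in kb of each peak centre from the nearest TSS of its RAB gene, upstream negative, for the Fra-1 (top, n = 51) and Fra-2 (bottom, n = 91) lists, with filled points for peaks that overlap the other list and vertical jitter. Points spread over the whole range, with 26 Fra-1 and 47 Fra-2 peaks upstream, and within 10 kb lie 2 peaks of Fra-1 but 11 of Fra-2.

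The partners of the RABs were described by the same rule. Of 66 regulators and effectors, 37 had a Fra-1 peak (56.1%, 43.3 to 68.3) and 52 a Fra-2 peak (78.8%, 67 to 87.9), beside the 45.3% and 59.0% of all genes. In the body or within 10 kb the counts were 21 (31.8%) and 31 (47.0%), against 16.5% and 23.7% of all genes. These genes are long, with a median of 80.2 kb, and the part of length was not tested. Of exchange factors 10 of 19 had a Fra-1 and 16 a Fra-2 peak, of GTPase-activating proteins 6 and 8 of 12, of effectors 19 and 24 of 30, and of the genes for RAB prenylation and recycling 2 and 4 of 5. RIN2, an exchange factor of RAB5, had 5 Fra-1 and 6 Fra-2 peaks in its body or within 10 kb, and TBC1D5, a GTPase-activating protein for RAB7A, 5 and 8. SYTL2, an effector of RAB27A, had 1 peak of each list within 1 kb of a TSS. So did the effectors MICALL1, MICALL2 and PLEKHM1 and the exchange factor RIN1. The effector SYTL1 had 1 that close in the Fra-2 list and none in the Fra-1 list. By this rule 1.62% of all genes had peaks in both lists, and 2.14% in the Fra-2 list alone. These members were picked out with their values known, and no share of the 66 was computed at this distance.

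The ARF and RAS families of small GTPases gave shares of the same order. Fra-1 and Fra-2 peaks belonged to 16 and 18 of 25 ARF family genes and to 16 and 20 of 25 RAS family genes. Their intervals for Fra-1, 42.5% to 82.0% for both families, hold the 48.2% of the RAB genes. For Fra-2 they were 50.6% to 87.9% (ARF) and 59.3% to 93.2% (RAS), and hold the 73.2% of the RAB genes. No difference between the families was tested.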

How the data were processed

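ChIP-seq of MDA-MB-231 cells gave 1 deposited peak list each for Fra-1 and Fra-2. Per the labels and the files themselves, the values the authors deposited are other than counts: peak starts and ends on a grid of 50 bp, with no score or height. The submitters' processing notes name Bowtie2 and hg19, without a version or role; how peaks were called, at what cutoff, and how input and replicates entered is not given in the sources used here. No autosomal peak passes its chromosome's end in GRCh37, the assembly behind hg19. Depth is unknown.

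Computation used samtools 1.23.1, pysam 0.24.0, scipy 1.17.1, pandas 2.3.3, numpy 2.4.6, matplotlib 3.10.9 and Python 3.11.15, with GENCODE 44 lifted to GRCh37. Up to 4 members per role group were named by rule, those with most peaks in the body or within 10 kb, ties by the widest peak, and all members without a peak; others were named after their values were seen. Members, role groups and lists were chosen with earlier results of these data known. RAB7B was not analysed here, nor were X-linked genes other than for a count. The plan foresaw stricter peaks by score; as no score exists, width was used. The methods were tested on simulated data. No test was run: with 1 list per antibody, counts and intervals stand beside those of all genes. Alternatives were other distances, nearest TSS, peaks at least 200 bp wide, no repeat-like regions (within 1 Mb of gaps of at least 1 Mb, or over 20% recurring words of 10 bases within 1000 bp), other overlaps and other motif windows.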

Additional observations from a re-analysis of the deposited data

How the results depend on the processing

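Distance decided how many RAB genes had a peak. The 27 genes with a Fra-1 peak became 10 within 10 kb or in the body, 8 with nearest TSS, 10 in the body alone and 17 among peaks at least 200 bp wide; all-gene shares under these rules were 16.5%, 19.2%, 13.2% and 28.0%. The 41 with a Fra-2 peak became 19, 14, 16 and 30, against 23.7%, 25.7%, 18.4% and 39.7% of all genes; with nearest TSS, 14 of 56 RAB genes lay no higher than all genes. The 53 regulators and effectors with a peak of either list became 32, 33, 26 and 35, against 25.2%, 27.6%, 19.6% and 42.5% of all genes. Fewer peaks or a shorter reach enter each of these by construction. Sharing of Fra-1 peaks was 68.6% with reciprocal overlap of 50% and 100% among peaks at least 200 bp wide, where Fra-2 sharing was 70.8%. With the window cut to 50 bp, 51.0% of the Fra-1 peaks and 72.5% of the Fra-2 peaks held the element. Gene bodies held 13.0% of Fra-1 peaks at least 200 bp wide, 3 of 23, against 27.5% of all; the cause was not tested. Smaller moves included Fra-2 sharing of 38.5% with reciprocal overlap and the element in 68.6% of Fra-1 peaks when only the peak itself was searched. Excluding repeat-like regions left 27 and 41 RAB genes, against 44.5% and 58.2% of all genes. It left 52 of 66 regulators and effectors, against 60.9% of all genes. No paired analysis was possible because each antibody has 1 list. Leaving out a replicate was not possible for the same reason.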

Other observations

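RAB genes on the X chromosome fall outside the autosomal rule. RAB9A, RAB9B, RAB33A, RAB39B, RAB40A, RAB40AL and RAB41 had 0 Fra-1 and 0 Fra-2 peaks by the same distances. The share of all X-linked genes with a peak was not computed, so whether these counts are low for that chromosome is unknown.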
